A study of Mus musculus with 14 samples.

Results

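Liver RNA of mice kept on a diet that brings on metabolic dysfunction-associated steatohepatitis (MASH), a fatty liver with inflammation and scarring, was compared with liver RNA of mice kept on standard chow. The comparison used 7 of the 14 RNA sequencing libraries of the study: 4 from chow livers (titled CD, replicates 1 to 4) and 3 from livers on the MASH diet alone (replicates 2, 3 and 4). All were from male mice labelled C57BL6/J that entered at 8 weeks of age and were fed for 16 weeks. The MASH diet was continued for 6 more weeks, in which mice received vehicle, C18:1 (a monounsaturated fatty acid, OA in the titles) or C18:1-leucine, the same fatty acid joined to an amino acid. The labels state neither the doses nor whether the MASH group received the vehicle or how long the chow mice were kept, so diet, age at collection and handling cannot be told apart. Of 45706 genes in the deposited table, 15674 had enough counts in the 14 libraries to be tested, and these are the members described here. The labels number the libraries but do not say that each is a separate mouse, so p-values measure only the spread between these libraries, which may be technical.

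The liver lobule is divided by its blood flow. Hepatocytes near the portal vein make glucose and urea and break down amino acids, while those near the central vein make glutamine and carry much of the drug-metabolising machinery. In steatohepatitis hepatocytes fill with fat and may die, stellate cells lay down matrix, immune cells enter, and bile duct cells can spread. RNA of whole liver is mostly hepatocyte RNA, so fewer cells of a type and less RNA per cell cannot be told apart in any value below.

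Total counts of the 7 libraries ran from 37843712 to 47333248. On the first principal component of their log values, which held 61.7% of the variance, the chow libraries lay between −47.4 and −37.6 and the MASH libraries at 43.9, 47.9 and 75.3, the last being replicate 4. Bile duct markers summed to 34.1 to 49.0 CPM (counts of a gene scaled to library size) in chow and to 77.7, 93.6 and 381.7 CPM in MASH replicates 2, 3 and 4. Only 1 of these 7 markers passed the test, with a rise. Most of the sum in every library was Spp1, at 25.2 to 37.3 CPM in chow and 64.9, 79.7 and 336 CPM in MASH replicates 2, 3 and 4. In chow replicate 2 pancreatic acinar markers reached 159.7 CPM, and elsewhere they lay between 0.0229 and 1.61 CPM. Of the 6 hepatocyte markers 4 fell, and their sum was 81890 to 103100 CPM in chow and 56510 to 63880 CPM in MASH. Of the stellate cell markers 4 of 5, of the Kupffer cell markers 2 of 5 and of the dendritic cell markers 4 of 7 rose, with sums of 196 to 295, 231 to 370 and 5.56 to 6.04 CPM in chow and 346 to 497, 445 to 688 and 8.70 to 11.4 CPM in MASH. Among Kupffer markers Cd5l stood at 93.5 to 144 CPM in chow and 257 to 359 CPM in MASH, and Adgre1 at 13.6 to 27.1 and 40.9 to 56.2 CPM. Clec4f, Vsig4 and Timd4 overlapped between the groups. Timd4 stood at 5.04 to 7.89 CPM in chow and 6.07, 4.92 and 1.86 CPM in MASH replicates 2, 3 and 4. Of endothelial markers 3 of 5 rose and 1 fell, and 1 platelet, 1 fat cell and 1 mesothelial marker rose. None of the tested neutrophil, B cell, T cell, mast cell, red cell, acinar or smooth muscle markers passed the test. The exons of 14 genes named below overlap, on the opposite strand, exons of a gene with at least 10% as many counts, and whether counting used strand is not given, so their values are uncertain. These are Afmid, Aldh1l2, Cyp4f18, G6pdx, Map1lc3b, Mst1, Nrg1, Ormdl2, Pfkp, Prmt7, Psmb9, Ptger4, Shmt1 and Smpd3.

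On the MASH diet more genes rose than fell, rises more often reached 2-fold, and the share of lower genes was highest among abundant transcripts. By edgeR's quasi-likelihood test with Benjamini-Hochberg adjustment over all tested genes, 3200 genes (20.4%) were higher and 2363 (15.1%) lower in MASH at an adjusted p under 0.05. These shares are the background for every list below, and the median log2 fold change of all tested genes was 0.01. Rises of at least 2-fold outnumbered falls, 1798 genes (11.5%) to 277 (1.77%). Genes whose 2 groups of libraries did not overlap numbered 3524 (22.5%) with MASH above and 2787 (17.8%) with MASH below. The lower genes held 47.1% to 50.7% of all counts in the chow libraries and 35.9% to 38.1% in the MASH libraries, while the higher genes held 4.17% to 4.42% and 9.77% to 11.2%. Among the 1506 genes averaging at least 100 CPM over the 7 libraries 43.4% were lower and 6.11% higher, whereas among the 4262 genes between 1 and 10 CPM 5.87% were lower and 32.4% higher. The lists below were not matched for abundance, and the part of expression level in their shares was not tested. Without MASH replicate 4 the counts over all tested genes were 2373 higher and 1438 lower.

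The largest rises included Ntrk2, Sdcbp2, Fam83a and Nrg1. Ntrk2 encodes TrkB, the receptor of brain-derived neurotrophic factor. It stood at 0.403, 0.771, 0.629 and 0.824 CPM in chow replicates 1 to 4 and 17.4, 23.7 and 17.2 CPM in MASH replicates 2 to 4. Every MASH library lay far above every chow library, with a log2 fold change, given with its SE, of 4.88 ± 0.25 (edgeR adjusted p = 3.13e-07). Sdcbp2, which encodes syntenin-2, a PDZ-domain scaffold protein, stood at 0.288, 0.0889, 0.201 and 0.206 CPM in chow replicates 1 to 4 and 5.84, 7.92 and 13.6 CPM in MASH replicates 2 to 4. The groups did not overlap, and the log2 fold change was 5.51 ± 0.73 (adjusted p = 0.000169). Fam83a, first known from tumour cells where it links to growth factor signalling, rose from 0.661 ± 0.342 to 17.4 ± 6.15 CPM (mean ± SD, n = 4 chow and n = 3 MASH, as in all such values below). Nrg1, which encodes the ErbB receptor ligand neuregulin-1, rose from 0.0503 ± 0.0512 to 1.95 ± 0.218 CPM, Shc2, an adaptor of receptor tyrosine kinases, from 0.254 ± 0.19 to 6.76 ± 5.43 CPM, and Pkp1, the desmosome protein plakophilin-1, from 0.0599 ± 0.0654 to 1.12 ± 0.398 CPM. Spire2, an actin nucleator, rose by 5.14 ± 0.67 on the log2 scale and Insyn1, a protein of inhibitory synapses, by 5.45 ± 1.06. The chow levels of Nrg1, Spire2, Insyn1 and Pkp1 rested on 5 to 9 counts in all 4 libraries together, so the size of these rises is imprecise.

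Ubd, H2-Q1, Chil3, Gdf3, Cfd and Medag were also among the largest rises. Ubd encodes FAT10, a ubiquitin-like protein induced by inflammatory cytokines, and stood at 0.633, 0.385, 0.655 and 0.707 CPM in chow replicates 1 to 4 and 9.46, 8.95 and 16.1 CPM in MASH replicates 2 to 4. All 3 MASH libraries lay above the chow libraries, with a log2 fold change of 4.26 ± 0.38 (adjusted p = 1.36e-05). H2-Q1, a class I histocompatibility gene of a family with near-identical copies, rose from 2.33 ± 1.3 to 45.7 ± 11.7 CPM. Because reads of such copies can be split between them, its value is uncertain. Chil3, a lectin-like protein of alternatively activated macrophages, rose from 0.0698 ± 0.0357 to 1.93 ± 1.18 CPM and Gdf3, a TGF-beta family ligand made by adipose macrophages, from 0.0398 ± 0.0429 to 1.38 ± 0.425 CPM. Cfd, which encodes the complement factor adipsin and is a fat cell product, rose from 0.567 ± 0.462 to 25 ± 8.1 CPM. Of the other fat cell markers Adipoq stood at 0 to 0.0889 CPM in chow and 0.0205 to 0.0229 CPM in MASH, Plin1 at 0 to 0.0294 CPM in chow and 0 to 0.0229 CPM in MASH, and Lep had no count in any of the 7 libraries. Medag, a gene of fat cell differentiation, rose from 0.07 ± 0.0134 to 1.26 ± 0.633 CPM and Tmem45b from 0.107 ± 0.102 to 1.93 ± 0.836 CPM. In all 4 chow libraries together Gdf3, Chil3, Medag and Tmem45b had only 6 to 15 counts each. The size of their rises is therefore imprecise too.

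**Figure D1:**
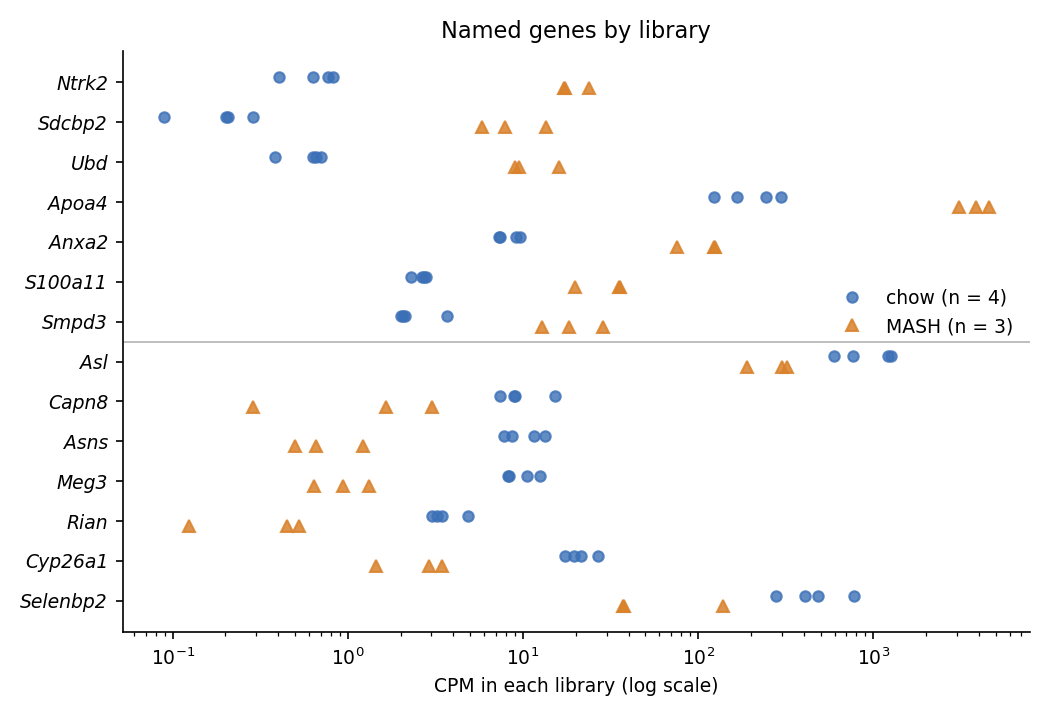
Level of 14 named genes in each library, in CPM on a log axis; circles are the 4 chow libraries and triangles the 3 MASH libraries. Ntrk2, Sdcbp2, Ubd, Apoa4, Anxa2, S100a11 and Smpd3 lie higher in every MASH library, and Asl, Capn8, Asns, Meg3, Rian, Cyp26a1 and Selenbp2 lower in every MASH library.

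Among the largest falls was a pair of long noncoding RNAs from one imprinted region of chromosome 12. Meg3 (GRCm38 chr12:109541001-109571726), a noncoding RNA expressed from the maternal copy, stood at 8.2, 12.6, 10.5 and 8.3 CPM in chow replicates 1 to 4 and 0.642, 1.33 and 0.942 CPM in MASH replicates 2 to 4. Rian (chr12:109603940-109661716), which lies downstream and hosts small nucleolar RNAs, stood at 3.22, 4.86, 3.42 and 3.03 CPM in chow replicates 1 to 4 and 0.124, 0.526 and 0.45 CPM in MASH replicates 2 to 4. In both genes every MASH library lay below every chow library. The log2 fold changes were −3.35 ± 0.30 for Meg3 (adjusted p = 1.21e-05) and −3.31 ± 0.38 for Rian (adjusted p = 5.06e-05). Between Dlk1 and Dio3, which bound the region, 7 of 104 annotated genes had any count in the 7 libraries and only these 2 had enough to be tested. Mirg, the noncoding RNA farther downstream and outside the test, had 37 counts in the chow libraries and 5 in the MASH libraries. Dlk1, expressed from the paternal copy, had 2 and 12 counts, and Dio3 6 and 17. This region was singled out after its values were seen.

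Other large falls included Cyp26a1, Asns, Il12rb1 and Capn8. Cyp26a1, which breaks down retinoic acid, stood at 26.8, 19.5, 17.3 and 21.4 CPM in chow replicates 1 to 4 and 1.45, 2.91 and 3.44 CPM in MASH replicates 2 to 4. The 3 MASH libraries lay below all chow libraries, with a log2 fold change of −3.03 ± 0.47 (adjusted p = 0.000491). Asns, asparagine synthetase, fell from 10.4 ± 2.6 to 0.788 ± 0.376 CPM (−3.72 ± 0.44 on the log2 scale). Slc13a2, a carrier of succinate and related acids, fell from 2.07 ± 0.951 to 0.243 ± 0.21 CPM, Il12rb1, a receptor subunit of interleukins 12 and 23, from 4.39 ± 1.33 to 0.611 ± 0.37 CPM, and Cspg5, a proteoglycan known from the brain, from 2.81 ± 1.58 to 0.461 ± 0.0337 CPM. Capn8, a calpain protease of gastrointestinal epithelium, fell from 10.1 ± 3.44 to 1.65 ± 1.37 CPM and Adgrf1, an adhesion G protein-coupled receptor, from 3.08 ± 0.518 to 0.424 ± 0.233 CPM. Obp2a, an odorant-binding lipocalin, fell from 4.02 ± 1.87 to 0.543 ± 0.327 CPM and Ugt2b38, a glucuronosyltransferase with close paralogs, from 17.3 ± 17.5 to 2.02 ± 1.05 CPM.

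Among genes of at least 100 CPM, rises were led by Apoa4, Lcn2, Anxa2 and Serpina7. Apoa4, an apolipoprotein of triglyceride-rich particles, stood at 167, 123, 295 and 245 CPM in chow replicates 1 to 4 and 3099, 4544 and 3867 CPM in MASH replicates 2 to 4. MASH replicate 3 was the highest and the groups did not overlap, with a log2 fold change of 4.21 ± 0.30 (adjusted p = 2.62e-06). Serpina7, the thyroxine-binding globulin, rose from 15.1 ± 3.63 to 157 ± 44.5 CPM. The class II histocompatibility genes H2-Eb1, H2-Aa and H2-Ab1 and their invariant chain Cd74 rose by 2.27 ± 0.32, 2.19 ± 0.31, 2.11 ± 0.29 and 1.87 ± 0.28 on the log2 scale, beside the dendritic and Kupffer cell marker sums given above. Mpeg1, the pore-forming protein of phagocytes, rose from 74.8 ± 18.2 to 268 ± 4.07 CPM and Lyz2, lysozyme of phagocytes, from 65.1 ± 11.4 to 219 ± 47.2 CPM. The part of cell numbers in these rises was not tested. Scd1, which makes monounsaturated fatty acids, rose from 1834 ± 1167 to 14648 ± 1344 CPM. Lcn2, an iron-binding acute-phase protein, stood at 14, 52.6, 3.6 and 5.45 CPM in chow replicates 1 to 4 and 60.9, 675 and 66.9 CPM in MASH replicates 2 to 4. MASH replicate 3 was far above all others, and the other 2 MASH libraries lay just above chow replicate 2. Its log2 fold change of 3.82 ± 1.18 lost its call when 1 library was left out (adjusted p = 0.056 to 0.248 without MASH replicate 3 or chow replicate 1, 3 or 4).

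Abundant genes that fell included Selenbp2, C8b, Cyp7b1, Slco1a1 and members of the Cyp2c and Mup families. Selenbp2, a selenium-binding protein with a close paralog, stood at 777, 279, 408 and 485 CPM in chow replicates 1 to 4 and 37.7, 37.3 and 138 CPM in MASH replicates 2 to 4. All MASH libraries lay below the chow libraries, with a log2 fold change of −2.78 ± 0.72 (adjusted p = 0.011). C8b, a chain of the complement membrane attack complex, fell from 429 ± 73.7 to 115 ± 20.4 CPM. Cyp7b1, an oxysterol hydroxylase of the alternative bile acid pathway, fell from 261 ± 84.8 to 62.8 ± 6.69 CPM and Slco1a1, an organic anion uptake carrier, from 353 ± 30.6 to 95.4 ± 22.3 CPM. Cyp2c54 fell from 392 ± 74.1 to 66.9 ± 3.84 CPM, and Mup11 and Mup14, members of the major urinary protein family, fell by 2.26 ± 0.31 and 2.30 ± 0.39 on the log2 scale. The Cyp2c and Mup genes have near-identical copies, between which reads may have been split, so values of single members are uncertain.

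**Figure D2:**
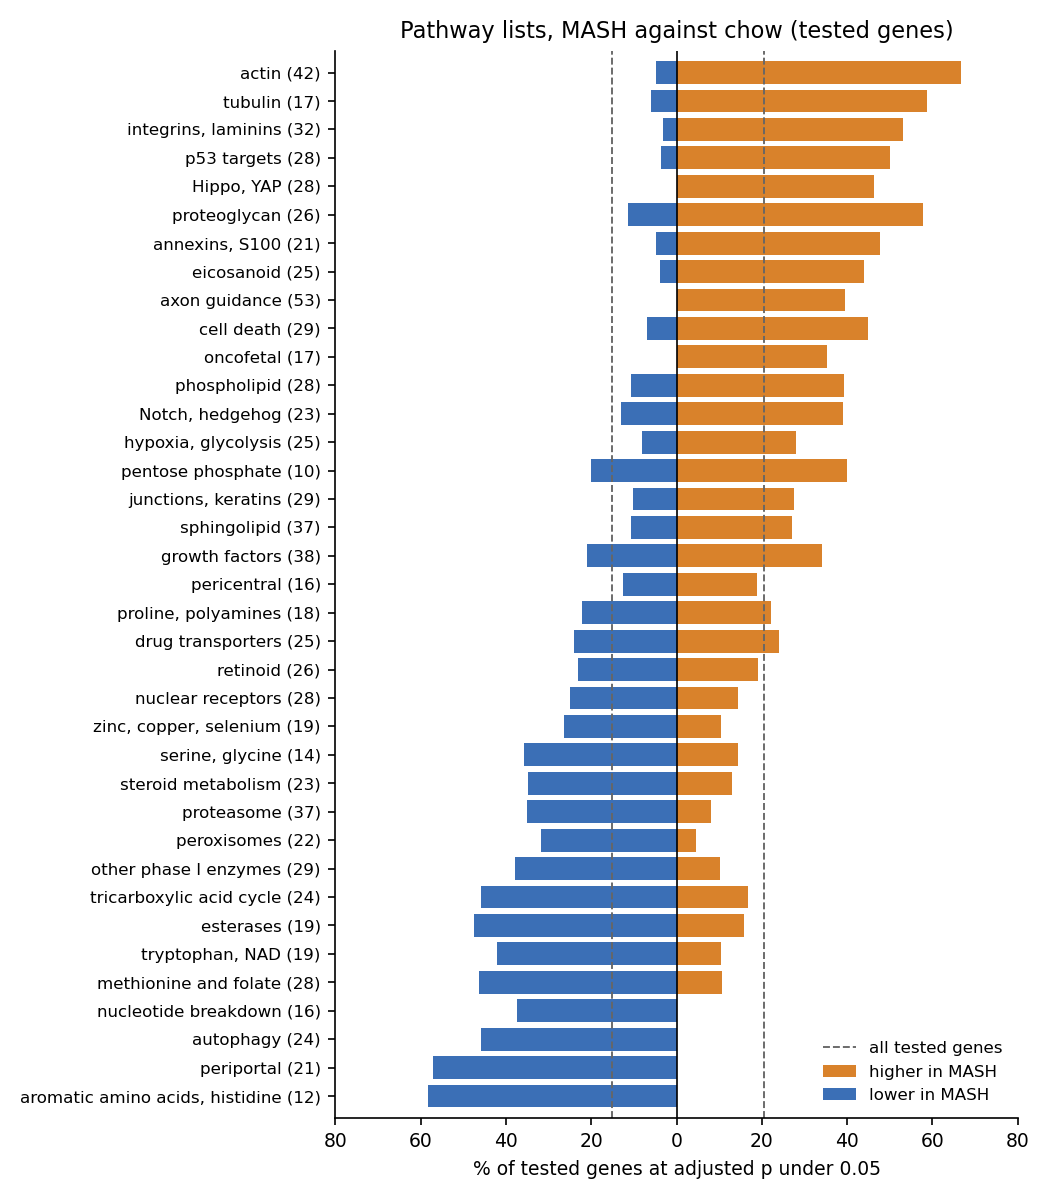
Share of the tested genes of each of 37 pathway lists that were higher (right, orange) or lower (left, blue) in MASH at an adjusted p under 0.05; dashed lines mark the shares over all tested genes, 20.4% and 15.1%. Actin, tubulin, laminin and proteoglycan lists lie mostly to the right, and periportal, aromatic amino acid, autophagy and tricarboxylic acid cycle lists mostly to the left.

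In 8 of the 37 lists both shares lay within 10 percentage points of the background: pericentral, proline and polyamine, drug transporter, retinoid, nuclear receptor, sphingolipid, hypoxia and glycolysis, and junction and keratin genes. Counts in these lists are given for their members and set nothing apart.

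Genes of periportal hepatocytes fell more often than tested genes in general, while those of pericentral hepatocytes moved in both directions. In the periportal list 0 of 21 tested genes rose (1 without chow replicate 4) and 12 fell (6 without MASH replicate 4), and the median change was −0.89 on the log2 scale. In the pericentral list 3 of 16 tested genes rose and 2 fell (1 without MASH replicate 4), with a median of 0.040. Asl, argininosuccinate lyase of the urea cycle, stood at 598, 769.8, 1217 and 1265 CPM in chow replicates 1 to 4 and 320.3, 302 and 190.3 CPM in MASH replicates 2 to 4. The MASH libraries all lay below the chow libraries, with a log2 fold change of −1.83 ± 0.37 (adjusted p = 0.00256). Arg1, the arginase that releases urea, fell from 1821 ± 323 to 819 ± 190.1 CPM, Gls2, the glutaminase of periportal cells, from 426 ± 62.6 to 177 ± 38.4 CPM, and Pck1, a gatekeeper of gluconeogenesis, from 5712 ± 497 to 2663 ± 785 CPM. Sult5a1, a sulfotransferase, fell from 8.93 ± 1.83 to 2.95 ± 0.0568 CPM and Igf1, the circulating growth factor, from 507 ± 80.9 to 315 ± 71.8 CPM. The urea cycle entry enzyme Cps1 fell by 0.99 ± 0.34 on the log2 scale, a call lost when 1 library was left out (adjusted p = 0.0519 to 0.157 without MASH replicate 2 or 4 or chow replicate 2, 3 or 4).

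Among pericentral genes Cyp1a2 and Cyp2e1 fell, and Lect2, Nkd1 and Glul rose. Cyp1a2, a cytochrome P450 of aromatic amines and caffeine, fell from 316 ± 15 to 132 ± 44.2 CPM, and Cyp2e1, the ethanol-inducible cytochrome P450, fell by 0.61 ± 0.16 on the log2 scale, a call lost when 1 library was left out (adjusted p = 0.0518 without MASH replicate 4). Lect2, a secreted chemotactic protein, rose from 55.5 ± 2.63 to 84.4 ± 18.7 CPM and Nkd1, a feedback inhibitor of Wnt signalling, from 5.58 ± 1.03 to 7.66 ± 0.269 CPM. Glul, glutamine synthetase, rose by 0.47 ± 0.15 on the log2 scale, a call also lost in this way (adjusted p = 0.0523 to 0.0774 without MASH replicate 2 or 3 or chow replicate 1, 2 or 3). Axin2, Lgr5 and Notum, other Wnt-responsive genes of this zone, had log2 fold changes of 0.41 ± 0.20, −0.017 ± 0.25 and −0.34 ± 0.14 and did not pass the test, Axin2 passing only without MASH replicate 3 (adjusted p = 0.00401). Notum passed without chow replicate 2 (adjusted p = 0.0463).

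**Figure D3:**
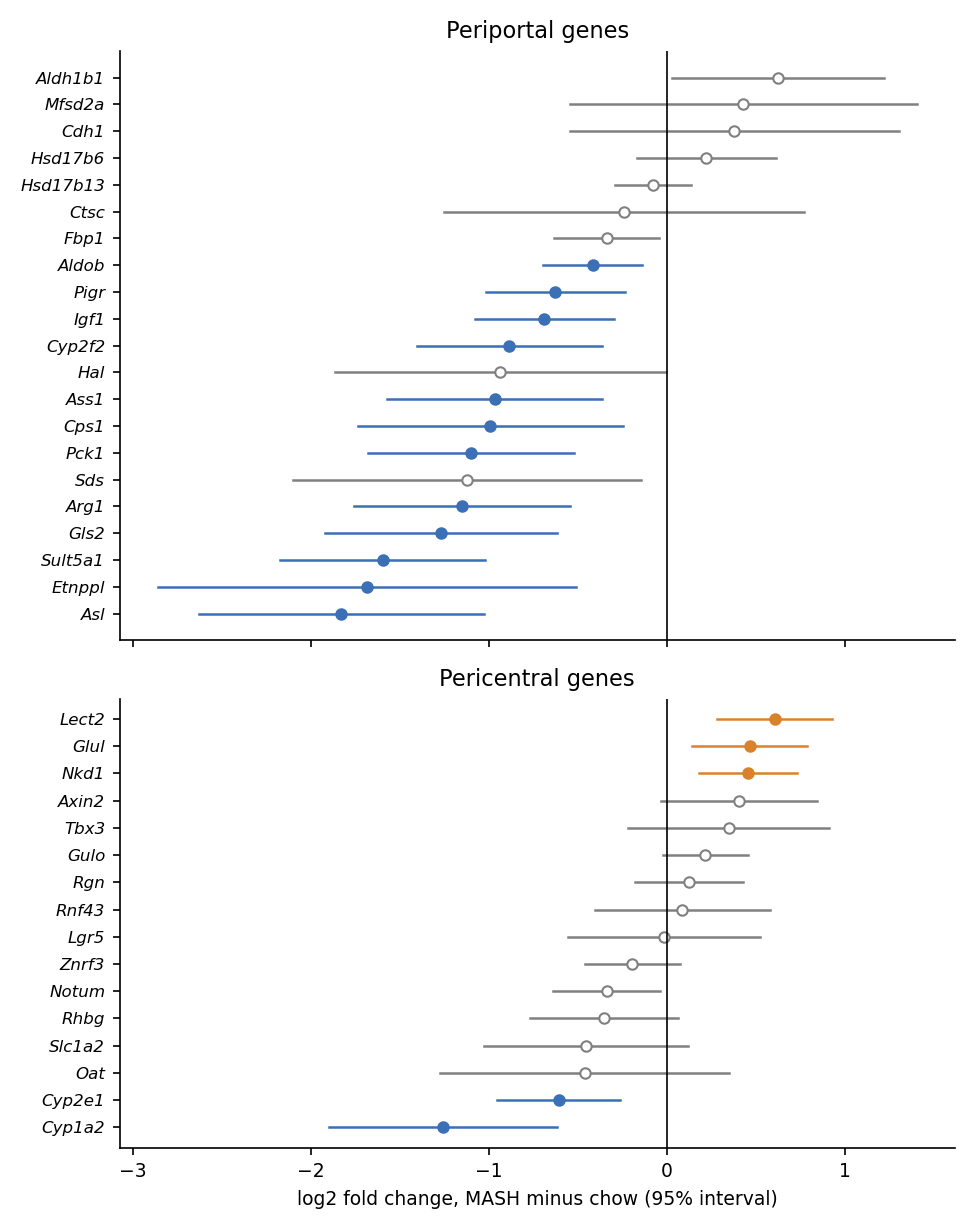
Log2 fold change (MASH minus chow) with its 95% interval for each tested periportal gene (top) and pericentral gene (bottom); filled symbols passed an adjusted p of 0.05. The 12 filled periportal genes all lie below 0, whereas the filled pericentral genes lie on both sides.

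Enzymes of the methionine cycle and of folate metabolism fell more often than they rose, and the 3 that rose were of low abundance. In the list of methionine cycle and folate enzymes 3 of 28 tested genes rose and 13 fell (7 without MASH replicate 4), and the median change was −0.27 on the log2 scale. Ahcy, which clears S-adenosylhomocysteine, stood at 3007, 3348, 4608 and 4689 CPM in chow replicates 1 to 4 and 2012, 1674 and 1342 CPM in MASH replicates 2 to 4. The MASH libraries were all below the chow libraries, with a log2 fold change of −1.22 ± 0.28 (adjusted p = 0.00463). Gnmt, the abundant methyltransferase that uses up spare S-adenosylmethionine, fell from 1796 ± 438 to 681 ± 90.8 CPM, Cth, the last enzyme of cysteine synthesis, from 732 ± 231 to 268 ± 82.1 CPM, and Aldh1l1, cytosolic formyltetrahydrofolate dehydrogenase, from 1021 ± 203 to 564 ± 40.4 CPM. Dmgdh and Sardh, which free methyl groups from choline breakdown in mitochondria, fell by 0.94 ± 0.12 and 0.62 ± 0.15, and cytosolic Shmt1 by 0.72 ± 0.11. Mat1a, which makes S-adenosylmethionine, fell from 6516 ± 1609.8 to 3373 ± 1252 CPM, a call lost when 1 library was left out (adjusted p = 0.0816 to 0.156 without MASH replicate 3 or 4 or chow replicate 3 or 4).

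Among mitochondrial folate enzymes 3 rose, while Shmt2 and Mthfd2l had log2 fold changes of −0.18 ± 0.084 and 0.47 ± 0.20 and did not pass, both passing only without MASH replicate 3 among the libraries left out (adjusted p = 0.0481 and adjusted p = 0.0326). Mthfd1l, which releases formate from mitochondria, stood at 0.69, 0.919, 1.18 and 0.765 CPM in chow replicates 1 to 4 and 5.3, 4.62 and 3.56 CPM in MASH replicates 2 to 4. Its MASH libraries lay above all chow libraries, with a log2 fold change of 2.33 ± 0.22 (adjusted p = 1.44e-05). Mthfd2, the mitochondrial folate dehydrogenase of growing cells, rose from 0.77 ± 0.328 to 2.18 ± 0.244 CPM and Aldh1l2, the mitochondrial counterpart of Aldh1l1, from 0.385 ± 0.104 to 0.97 ± 0.459 CPM. In serine and glycine metabolism 2 of 14 tested genes rose (1 without MASH replicate 4) and 5 fell. Psat1, a step of serine synthesis, rose from 0.363 ± 0.131 to 2.06 ± 0.845 CPM. Hao1, which makes glyoxylate, fell from 254 ± 27.4 to 167 ± 14.7 CPM, and Agxt, which uses it, from 298 ± 44.2 to 152 ± 11.1 CPM. In proline and polyamine metabolism 4 of 18 tested genes rose and 4 fell (1 without MASH replicate 2 or 4, 2 without chow replicate 2, 3 or 4). Aldh18a1, the first step of proline synthesis, rose from 1.03 ± 0.256 to 3.56 ± 0.69 CPM, and Smox and Sat1, which oxidise and acetylate polyamines, rose from 3.57 ± 0.338 to 9.68 ± 0.911 CPM and from 75.3 ± 5.03 to 131 ± 10.6 CPM. Asns, described above and known as a target of the stress factor ATF4, fell in the same libraries. The part of ATF4 in these values was not tested.

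**Figure D4:**
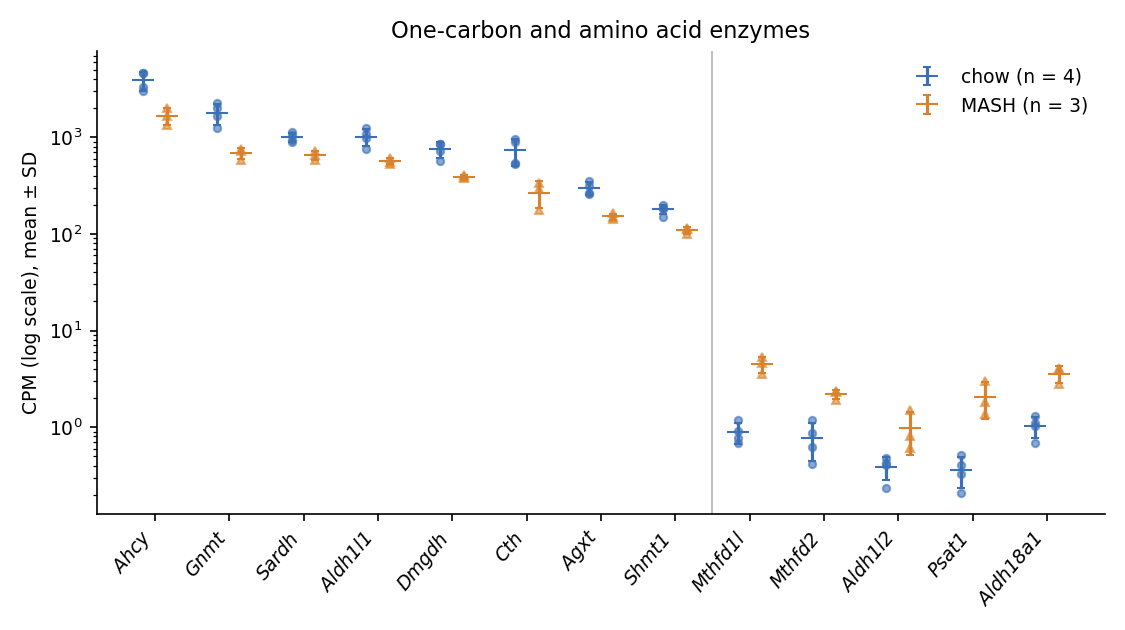
Mean level with SD in chow (n = 4) and MASH (n = 3), in CPM on a log axis, with each library as a point. Drawn are 8 one-carbon and amino acid enzymes chosen from those that fell and 5 chosen from those that rose. Smox and Sat1, which also rose, are not drawn. The falling enzymes were expressed between 109 and 3913 CPM at their group means and the rising ones between 0.363 and 4.49 CPM.

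Enzymes that break down aromatic amino acids, tryptophan and nucleotides fell more often than they rose. In the aromatic amino acid and histidine list 0 of 12 tested genes rose and 7 fell (3 without MASH replicate 3, 2 without MASH replicate 4, 4 without chow replicate 3). Qdpr, which renews the cofactor tetrahydrobiopterin, fell from 329.9 ± 36.6 to 230.4 ± 23.1 CPM. Tat, the tyrosine aminotransferase, fell by 1.51 ± 0.47 on the log2 scale, a call lost when 1 library was left out (adjusted p = 0.0605 to 0.105 without MASH replicate 2 or 4 or chow replicate 4). In tryptophan and NAD metabolism 2 of 19 tested genes rose (1 without MASH replicate 2 or chow replicate 3 or 4, 0 without MASH replicate 3) and 8 fell. Tdo2, which opens the tryptophan ring in hepatocytes, fell from 3023 ± 868 to 1449.8 ± 362 CPM, Afmid, the next enzyme, from 159.7 ± 37 to 73.5 ± 15.4 CPM, and Acmsd, which diverts the pathway away from NAD, from 18.7 ± 2.12 to 8.63 ± 0.363 CPM. In nucleotide breakdown 0 of 16 tested genes rose (1 without MASH replicate 3 or chow replicate 2) and 6 fell. Dpyd, which begins pyrimidine breakdown, fell from 659 ± 70.4 to 365 ± 67.7 CPM and Upb1, which ends it, from 352 ± 41.6 to 227 ± 5.01 CPM, and Urah and Urad, which act after urate oxidase, fell by 0.56 ± 0.12 and 0.83 ± 0.21 on the log2 scale.

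In central carbon metabolism genes of the tricarboxylic acid cycle fell more often than they rose, by small amounts, 4 of 10 pentose phosphate genes rose, and single glycolytic isoenzymes rose. In the tricarboxylic acid cycle list 4 of 24 tested genes rose (1 without MASH replicate 2 or chow replicate 1, 2 or 4, 0 without MASH replicate 3, 2 without MASH replicate 4) and 11 fell (7 without MASH replicate 4 or chow replicate 3), with a median of −0.19. Fh1, fumarase, had the largest fall of the list, from 264 ± 19.4 to 163 ± 23.1 CPM, and the succinate dehydrogenase subunits Sdhb and Sdhd fell by 0.46 ± 0.11 and 0.41 ± 0.078 on the log2 scale. In the pentose phosphate list 4 of 10 tested genes rose and 2 fell (1 without MASH replicate 2 or 4 or chow replicate 3). Pgd, an oxidative enzyme that yields NADPH, stood at 24.7, 26.1, 26.2 and 26.6 CPM in chow replicates 1 to 4 and 40.1, 54.9 and 51.2 CPM in MASH replicates 2 to 4. The groups did not overlap, and the log2 fold change was 0.91 ± 0.13 (adjusted p = 0.00021). G6pdx, the entry enzyme, rose from 3.41 ± 0.729 to 8.44 ± 0.747 CPM, and Taldo1, of the nonoxidative branch, from 76.6 ± 2.31 to 96.9 ± 4.43 CPM. In the list of hypoxia and glycolysis genes 7 of 25 tested genes rose and 2 fell (1 without MASH replicate 2 or 3 or chow replicate 2). Hk2, a hexokinase low in healthy hepatocytes, rose from 2.45 ± 0.858 to 12.8 ± 4.07 CPM, Hk1 from 4.18 ± 0.385 to 7.66 ± 0.782 CPM, Pkm, the pyruvate kinase of non-hepatocytes, from 20.7 ± 1.17 to 74.4 ± 19.3 CPM, and Pfkp, the platelet phosphofructokinase, from 3.34 ± 0.462 to 8.65 ± 1.49 CPM. Of the other glycolytic enzymes Ldha, Pgk1, Eno1 and Aldoa had log2 fold changes of 0.37 ± 0.18, −0.19 ± 0.083, 0.29 ± 0.11 and 0.20 ± 0.12 and did not pass, Ldha passing without chow replicate 1 (adjusted p = 0.0487). The shares of the whole list lay near the background. Bnip3, a mitophagy receptor, fell from 343 ± 75.9 to 175 ± 24.4 CPM. Of hypoxia targets Egln3 and Ndrg1 rose by 0.65 ± 0.14 and 0.81 ± 0.20 on the log2 scale, while Adm and Slc2a1 had 0.12 ± 0.23 and −0.21 ± 0.19 and did not pass.

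Phospholipid and eicosanoid genes rose more often than they fell, and single sphingolipid genes rose strongly. In the sphingolipid list 10 of 37 tested genes rose and 4 fell (7 without chow replicate 1). Smpd3, neutral sphingomyelinase 2, stood at 3.68, 2.02, 2.11 and 2.06 CPM in chow replicates 1 to 4 and 12.9, 18.4 and 28.7 CPM in MASH replicates 2 to 4. All 3 MASH libraries lay above the chow libraries, with a log2 fold change of 3.02 ± 0.26 (adjusted p = 1.2e-05). Prmt7, whose exons overlap those of Smpd3 on the other strand, had a log2 fold change of 0.046 ± 0.10. Sptlc2, a subunit of the first enzyme of ceramide synthesis, rose from 25.1 ± 3.78 to 43.2 ± 3.55 CPM, Cerk, which phosphorylates ceramide, from 8.07 ± 0.558 to 17.5 ± 0.913 CPM, B4galt6, a lactosylceramide synthase, from 2.66 ± 0.396 to 9.81 ± 1.57 CPM, and S1pr2, a receptor of sphingosine 1-phosphate, from 5.46 ± 1.47 to 14.2 ± 4.66 CPM. Ormdl2, of a family that restrains ceramide synthesis, fell from 31.2 ± 8.57 to 20.2 ± 0.918 CPM.

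In the phospholipid list 11 of 28 tested genes rose and 3 fell (1 without MASH replicate 4 or chow replicate 2). Chka, choline kinase alpha, rose from 52.1 ± 20 to 125 ± 42.5 CPM, and the lysophospholipid acyltransferases Lpcat1 and Lpcat2 rose by 1.08 ± 0.19 and 1.63 ± 0.21 on the log2 scale. The phospholipases Pla2g4a, Pla2g6, Pla2g7 and Pla2g15 rose by 1.03 ± 0.23, 1.04 ± 0.13, 1.19 ± 0.22 and 0.70 ± 0.13. In the eicosanoid list 11 of 25 tested genes rose and 1 fell (0 without MASH replicate 3 or 4 or chow replicate 1). Hpgds, the prostaglandin D synthase of blood-derived cells, stood at 1.01, 1.45, 1.21 and 0.854 CPM in chow replicates 1 to 4 and 4.06, 3.46 and 6.9 CPM in MASH replicates 2 to 4. No MASH library overlapped the chow range, and the log2 fold change was 2.09 ± 0.35 (adjusted p = 0.000702). Tbxas1, thromboxane synthase, rose from 3.24 ± 0.717 to 9.92 ± 1.05 CPM, Cysltr1, a cysteinyl leukotriene receptor, from 0.539 ± 0.139 to 1.79 ± 0.733 CPM, and the prostaglandin E2 receptors Ptger2 and Ptger4 by 1.05 ± 0.22 and 1.66 ± 0.29. Macrophages express several of these genes, and 2 of 5 Kupffer and 4 of 7 dendritic cell markers rose in the same libraries. Their part in the result was not tested.

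Retinoid and steroid enzymes moved in both directions. In the retinoid list 5 of 26 tested genes rose (3 without MASH replicate 4) and 6 fell. Beside Cyp26a1, Rbp4, the blood carrier of retinol, fell from 3739.7 ± 481 to 2470.0 ± 215 CPM and Rdh11, a retinal reductase, from 25.6 ± 4.8 to 13.4 ± 2.02 CPM. Dhrs9, an oxidoreductase of retinol, stood at 2.85, 2.05, 1.06 and 0.824 CPM in chow replicates 1 to 4 and 9.84, 7.46 and 11.2 CPM in MASH replicates 2 to 4. The MASH libraries were all higher, with a log2 fold change of 2.49 ± 0.48 (adjusted p = 0.002). Rdh9 and Aldh1a7 rose by 0.82 ± 0.19 and 0.56 ± 0.14 on the log2 scale. In the steroid list 3 of 23 tested genes rose and 8 fell. Hsd11b1, which regenerates active glucocorticoid, fell from 566 ± 57.9 to 261 ± 45.3 CPM, Cyp17a1, a steroid hydroxylase and lyase, from 16 ± 6.54 to 7.01 ± 0.957 CPM, and Akr1c19 and Akr1c14, of a family with close copies, by 1.53 ± 0.24 and 0.80 ± 0.17. Hsd17b12, a ketoacyl reductase of fatty acid elongation, rose from 147 ± 17.7 to 195 ± 14.8 CPM.

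Drug-metabolising and esterase genes fell more often than they rose. In the list of other phase I enzymes 3 of 29 tested genes rose and 11 fell. Cyp3a11 and Cyp3a25, of the main drug-oxidising family, fell from 4681 ± 660.4 to 2470.2 ± 624 CPM and from 969 ± 312 to 447 ± 45.5 CPM, and Aox3, an aldehyde oxidase, from 879 ± 157 to 533 ± 64.2 CPM. Cyp4f18, an eicosanoid hydroxylase of myeloid cells, rose from 0.539 ± 0.267 to 3.15 ± 0.266 CPM. In the esterase list 3 of 19 tested genes rose and 9 fell. Ces2a stood at 346, 456, 415 and 427 CPM in chow replicates 1 to 4 and 148, 144 and 118 CPM in MASH replicates 2 to 4. Its MASH libraries lay below all chow libraries, with a log2 fold change of −1.59 ± 0.24 (adjusted p = 0.00036). Ces3b fell from 427 ± 81.9 to 156 ± 55.6 CPM and Pon1, the paraoxonase of high-density lipoprotein, from 701 ± 67.9 to 413 ± 30.1 CPM, while Ces2e rose from 91.1 ± 12.4 to 156 ± 14.9 CPM. The Cyp3a and Ces genes lie in clusters of close copies, so single values are uncertain. In the transporter list 6 of 25 tested genes rose and 6 fell (3 without MASH replicate 2 or 4): the efflux pumps Abcb1a, Abcc1 and Abcc5 rose by 1.29 ± 0.24, 1.42 ± 0.13 and 0.97 ± 0.14 on the log2 scale, and the prostaglandin carrier Slco2a1 fell by 1.59 ± 0.27.

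Peroxisome genes fell more often than they rose. The joint list of zinc, copper and selenium genes had 26.3% lower and 10.5% higher, against 15.1% and 20.4% of all tested genes. Nuclear receptors, a list near the background, moved in both directions. Of 28 nuclear receptors tested, 4 (2 without MASH replicate 4 or chow replicate 2 or 3) rose and 7 (3 without MASH replicate 4, 4 without chow replicate 2) fell. Nr1i3, which encodes the xenobiotic receptor CAR, fell from 579 ± 155 to 305 ± 53.3 CPM and Nr1d2, a clock repressor, from 100.4 ± 7.82 to 57.8 ± 22.3 CPM, while the early-response receptors Nr4a2 and Nr4a3 rose from 0.861 ± 0.339 to 2.23 ± 0.53 CPM and from 0.2 ± 0.0698 to 1.04 ± 0.11 CPM. Of 22 peroxisome genes 1 (2 without MASH replicate 4) rose and 7 (2 without MASH replicate 4) fell. Pex2, a ubiquitin ligase of the peroxisome membrane, fell from 48.8 ± 5.27 to 37.1 ± 0.992 CPM. Of 19 zinc, copper and selenium genes 2 (1 without MASH replicate 2, 3 or 4 or chow replicate 2 or 3) rose and 5 (3 without MASH replicate 4 or chow replicate 1) fell, among them Selenbp2, described above, and Slc31a1, the copper uptake channel, from 185 ± 13.6 to 134 ± 8.86 CPM. Most of these falls were of selenium genes, while zinc and copper genes moved in both directions. The metallothioneins Mt1 and Mt2, which bind both metals, had log2 fold changes of −0.89 ± 0.73 and −0.95 ± 0.77 and did not pass.

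Autophagy and proteasome genes fell more often than they rose, by modest amounts. In the autophagy list 0 of 24 tested genes rose and 11 fell. Ulk1, the kinase that starts autophagy, stood at 138, 133, 138 and 130.2 CPM in chow replicates 1 to 4 and 79.4, 82.3 and 82.3 CPM in MASH replicates 2 to 4. The MASH libraries lay below the chow libraries, with a log2 fold change of −0.73 ± 0.10 (adjusted p = 0.000162). Map1lc3b, a coat protein of autophagosomes, fell from 171 ± 10.8 to 126 ± 16.9 CPM, Atg3, which helps to attach it to lipid, from 100.2 ± 8.62 to 68.7 ± 4.15 CPM, and the receptor Nbr1 from 273 ± 31.6 to 216 ± 7.58 CPM. In the proteasome list 3 of 37 tested genes rose and 13 fell (4 without MASH replicate 4). The catalytic subunits Psmb8 and Psmb9, which replace constitutive subunits in the immunoproteasome, rose from 22.6 ± 4.39 to 35.3 ± 2.65 CPM and from 9.86 ± 1.13 to 20.8 ± 3.42 CPM, and Psmd8 of the regulatory cap rose from 106 ± 6.86 to 141 ± 17.1 CPM. Psma2 and Psma4 of the outer ring and Psmd6 and Psmc6 of the cap fell by 0.34 ± 0.086, 0.27 ± 0.067, 0.36 ± 0.086 and 0.36 ± 0.087 on the log2 scale.

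Genes of the cytoskeleton and of calcium-dependent membrane binding rose more often than they fell. In the actin list 28 of 42 tested genes rose and 2 fell (1 without MASH replicate 2 or 4 or chow replicate 2, 3 or 4), and the median change was 0.96 on the log2 scale. In the tubulin list 10 of 17 tested genes rose and 1 fell (0 without MASH replicate 2 or 4 or chow replicate 1 or 3), with a median of 0.74. In the annexin and S100 list 10 of 21 tested genes rose and 1 fell (0 without MASH replicate 3 or 4 or chow replicate 2, 3 or 4), with a median of 0.84. Anxa2, which binds membranes and actin, stood at 9.15, 7.26, 7.43 and 9.57 CPM in chow replicates 1 to 4 and 76, 123 and 125 CPM in MASH replicates 2 to 4. Its MASH libraries lay far above all chow libraries, with a log2 fold change of 3.69 ± 0.31 (adjusted p = 1.04e-05). S100a11, a small calcium-binding partner of annexins, stood at 2.65, 2.73, 2.29 and 2.8 CPM in chow replicates 1 to 4 and 19.7, 35.9 and 35.2 CPM in MASH replicates 2 to 4. The groups were again apart, with a log2 fold change of 3.53 ± 0.34 (adjusted p = 1.84e-05). S100a10, the partner of Anxa2, rose from 91.7 ± 12.3 to 176 ± 5.01 CPM and Anxa5, known for binding exposed phosphatidylserine, from 61.3 ± 4.72 to 253 ± 50.7 CPM. Anxa6, Anxa7 and Anxa11 had log2 fold changes of 0.14 ± 0.087, 0.064 ± 0.084 and 0.14 ± 0.083 and did not pass.

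Promoter sequences are shown for 3 of the rising genes that hold a match to TGANTCA, the letters bound by AP-1 factors of the Jun and Fos families, and for Asns with a match to TGATGNAA, of the kind known as its amino acid response element. Each run is the 250 bases before the transcription start from RefSeq on GRCm38.p6, read 5′ to 3′ on the strand of the gene, with the match in capitals. The runs are Sprr1a chr3:92485882-92486131 (minus strand), Anxa2 chr9:69453433-69453682 (plus), S100a11 chr3:93520246-93520495 (plus) and Asns chr6:7693210-7693459 (minus).
Sprr1a: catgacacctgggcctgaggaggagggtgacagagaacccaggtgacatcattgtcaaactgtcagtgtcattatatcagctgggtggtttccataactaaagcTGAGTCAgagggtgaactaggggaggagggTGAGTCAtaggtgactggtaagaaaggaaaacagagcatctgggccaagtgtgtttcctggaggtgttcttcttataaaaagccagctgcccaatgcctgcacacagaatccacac
Anxa2: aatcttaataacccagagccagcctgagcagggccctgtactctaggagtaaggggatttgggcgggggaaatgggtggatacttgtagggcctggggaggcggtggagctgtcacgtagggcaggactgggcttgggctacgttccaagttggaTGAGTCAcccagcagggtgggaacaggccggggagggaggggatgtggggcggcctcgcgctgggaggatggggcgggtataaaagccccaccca
S100a11: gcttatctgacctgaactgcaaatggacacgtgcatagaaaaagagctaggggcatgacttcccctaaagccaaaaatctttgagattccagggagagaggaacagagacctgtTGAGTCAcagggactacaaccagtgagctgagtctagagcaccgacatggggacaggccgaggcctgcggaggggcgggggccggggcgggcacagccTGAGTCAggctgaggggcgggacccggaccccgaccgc
Asns: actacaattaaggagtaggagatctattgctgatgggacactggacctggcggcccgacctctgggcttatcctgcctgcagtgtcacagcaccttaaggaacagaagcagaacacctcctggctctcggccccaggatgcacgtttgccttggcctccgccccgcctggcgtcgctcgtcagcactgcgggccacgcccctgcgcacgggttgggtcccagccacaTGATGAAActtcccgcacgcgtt
Searched on both strands, TGANTCA was found in 6.75% of 32851 RefSeq promoter windows of 250 bases, in 2 of the 15 genes with a promoter among the 25 largest rises (Sprr1a and Sdcbp2) and in 2 of the 20 among the 25 largest falls (Capn8 and Ugt2b38). Of 8 rising annexin and S100 genes with a promoter in the table it was found in 2, Anxa2 and S100a11. Over the whole annexin and S100 list, rising or not, it was found in 4 of 19 genes with a promoter. TGATGNAA was found in 3.45% of the windows, in 1 of the same 15 rising genes and in 1 of the 20 falling genes, Asns. A match gives letters only, and binding was not measured. Sprr1a, a cornified envelope protein of skin, was not counted in any chow library and stood at 0.932, 2.61 and 2.66 CPM in the MASH libraries, at least 97.2-fold higher against a floor of 3 counts over the chow group, which covers counting error only.

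The tubulins Tubb2a, Tubb6 and Tuba1a rose, as did the actin-linked genes Capg, Flna and Tmsb10 and the intermediate filament gene Vim. Tubb2a, a beta-tubulin, stood at 85.7, 40.5, 37.9 and 34.3 CPM in chow replicates 1 to 4 and 251, 297 and 232 CPM in MASH replicates 2 to 4. All MASH libraries lay above the chow libraries, with a log2 fold change of 2.39 ± 0.43 (adjusted p = 0.00129), and Tubb6 and Tuba1a, other tubulins, rose from 3.56 ± 0.859 to 15.1 ± 4.51 CPM and from 2.85 ± 0.616 to 10.9 ± 3.57 CPM. Among actin-linked genes Capg, a filament-capping protein of macrophages, rose from 2.14 ± 0.137 to 17 ± 3.77 CPM, Flna, a filament crosslinker, from 34.8 ± 7.03 to 109 ± 20.4 CPM, Vim, the mesenchymal intermediate filament, from 13.8 ± 2.27 to 52.1 ± 11.7 CPM, and Tmsb10, a monomer-binding peptide, from 6.5 ± 0.693 to 29.2 ± 9.54 CPM. Rdx, the membrane linker typical of hepatocytes, fell from 218 ± 7.03 to 178 ± 8.25 CPM, whereas its relative Msn rose from 23.5 ± 5.02 to 60.7 ± 8.86 CPM. Stellate, Kupffer and dendritic cells express several of these genes. Of their markers 4 of 5, 2 of 5 and 4 of 7 rose in the same libraries, and the part of these cells was not tested. The smooth muscle genes Acta2, Cnn1 and Myl9 had log2 fold changes of 1.08 ± 0.56, −1.23 ± 1.00 and 0.22 ± 0.39 and did not pass. Acta2 was far higher in chow replicate 1 than in the other chow libraries and passed without it (adjusted p = 0.00341).

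**Figure D5:**
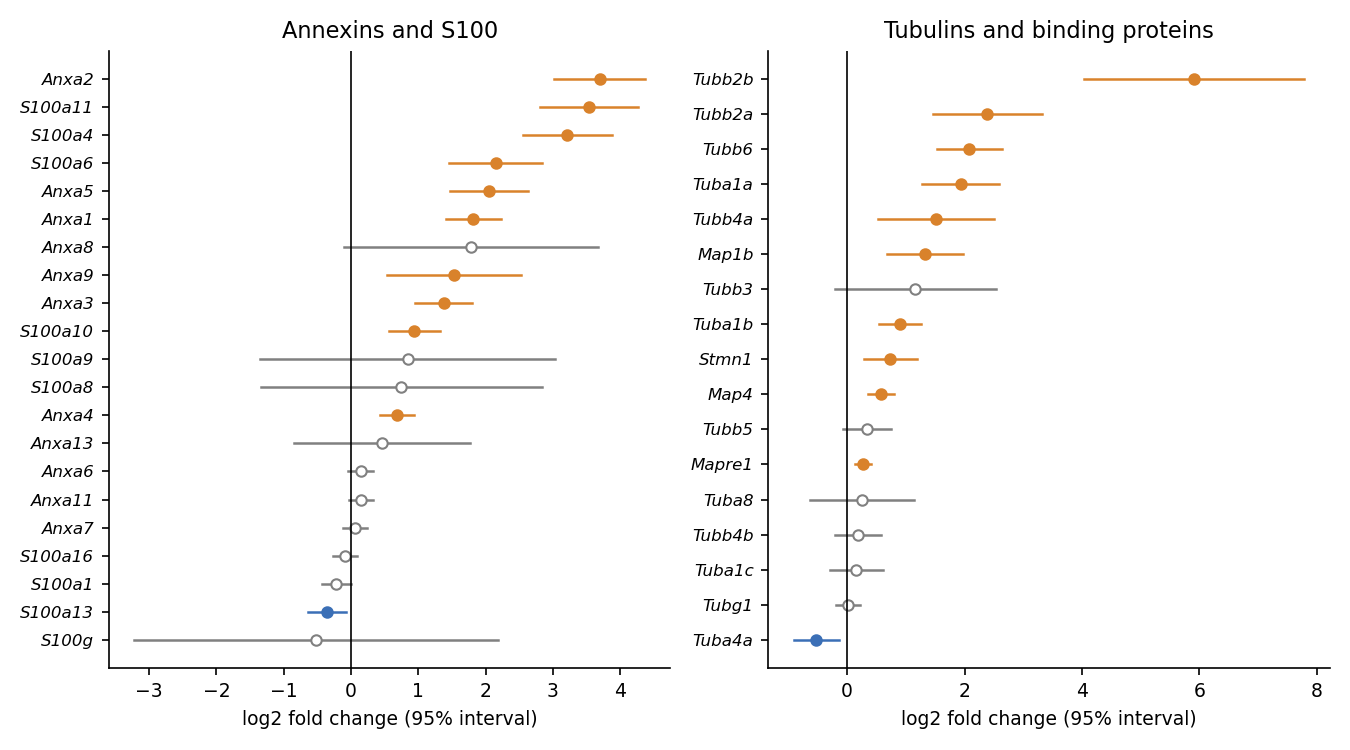
Log2 fold change (MASH minus chow) with its 95% interval for the tested annexin and S100 genes (left) and tubulin and tubulin-binding genes (right), ordered by size; filled symbols passed an adjusted p of 0.05. In the left panel 10 filled genes lie above 0 and 1 below, and in the right panel 10 above and 1 below.

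Guidance, Hippo pathway and Notch genes rose more often than they fell, many from low levels, while growth factor genes moved in both directions. In the list of axon guidance genes, cues that steer migrating cells and vessels, 21 of 53 tested genes rose (13 without MASH replicate 4) and 0 fell (1 without MASH replicate 4 or chow replicate 1). Sema3b, a secreted semaphorin, stood at 0.489, 0.623, 0.806 and 1 CPM in chow replicates 1 to 4 and 5.36, 6.48 and 12.6 CPM in MASH replicates 2 to 4. The MASH libraries lay above all chow libraries, with a log2 fold change of 3.47 ± 0.50 (adjusted p = 0.000274). Sema4d, a semaphorin of immune cells, rose from 1.18 ± 0.25 to 7.64 ± 2.82 CPM, Robo2, a Slit receptor, from 2.28 ± 0.883 to 8.49 ± 3.68 CPM, and Unc5b, a netrin receptor, from 5.77 ± 1.55 to 17.7 ± 3.15 CPM. The plexins Plxna1 and Plxnd1, receptors of semaphorins, rose by 0.55 ± 0.090 and 0.92 ± 0.11 on the log2 scale, while the neuropilins Nrp1 and Nrp2 had 0.10 ± 0.24 and 0.22 ± 0.086 and did not pass.

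In the Hippo and YAP list 13 of 28 tested genes rose (7 without MASH replicate 4) and 0 fell (1 without MASH replicate 2 or chow replicate 2 or 4). Wwtr1, which encodes the coactivator TAZ, rose from 20.5 ± 1.55 to 35.5 ± 4.39 CPM, and its relative Yap1 had a log2 fold change of −0.14 ± 0.094 and did not pass. Axl, a receptor of apoptotic cell clearance, rose from 24.6 ± 4.38 to 75.7 ± 2.11 CPM, Myof, a membrane repair protein, from 4.4 ± 0.281 to 19.7 ± 5.17 CPM, and Ajuba, an inhibitor of the Hippo kinases, from 6.5 ± 0.108 to 16.9 ± 7.21 CPM, while the common target Ccn2 had 0.20 ± 0.34. In the Notch and hedgehog list 9 of 23 tested genes rose (4 without MASH replicate 4) and 3 fell (0 without MASH replicate 2, 1 without MASH replicate 4). Heyl, a Notch target, rose from 1.07 ± 0.316 to 3.01 ± 0.776 CPM, Notch1 from 30 ± 4.82 to 44.3 ± 3.26 CPM and Ihh, a hedgehog ligand, from 1.12 ± 0.345 to 3.43 ± 1.39 CPM. In the growth factor list 13 of 38 tested genes rose and 8 fell (5 without MASH replicate 3 or chow replicate 3, 3 without MASH replicate 4). These shares, 34.2% and 21.1%, were both above those of all tested genes, 20.4% and 15.1%. Pdgfrb, the receptor of stellate cells and pericytes, rose from 6.76 ± 0.968 to 23.6 ± 9.66 CPM, its ligand Pdgfb from 1.45 ± 0.0804 to 3.93 ± 2.46 CPM, and the EGF receptor ligands Btc and Ereg from 1.44 ± 0.337 to 5.07 ± 1.48 CPM and from 0.131 ± 0.103 to 0.804 ± 0.125 CPM. Vegfa, the main vascular growth factor, fell from 166 ± 10.1 to 120.0 ± 2.09 CPM and Mst1, a hepatocyte-made growth factor, from 146 ± 7.42 to 115 ± 4.85 CPM.

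Basement membrane and proteoglycan genes rose more often than they fell. In the integrin and laminin list 17 of 32 tested genes rose (11 without chow replicate 3 or 4) and 1 fell, and in the proteoglycan list 15 of 26 tested genes rose and 3 fell with a median change of 1.02 on the log2 scale. Nid1, which links laminin to collagen IV, stood at 13.2, 14.6, 11.9 and 15.4 CPM in chow replicates 1 to 4 and 40.1, 56.9 and 49.4 CPM in MASH replicates 2 to 4. The groups did not overlap, and the log2 fold change was 1.82 ± 0.19 (adjusted p = 2.46e-05). The laminin chains Lamb1 and Lamc1 rose from 11.1 ± 1.52 to 21.4 ± 5.46 CPM and from 16.8 ± 1.66 to 32.7 ± 3.71 CPM, Itgb5, an integrin that binds vitronectin, from 68.3 ± 4.15 to 115 ± 16.5 CPM, and Itga6, a laminin receptor, from 1.82 ± 0.397 to 4.83 ± 1.83 CPM. Gpc1, a membrane-anchored heparan sulfate proteoglycan, rose from 11.5 ± 3.49 to 49.6 ± 1.86 CPM, Lum, a collagen-binding proteoglycan, from 6.43 ± 1.41 to 24.4 ± 15 CPM, Vcan, the large proteoglycan versican, from 0.163 ± 0.136 to 1.68 ± 0.508 CPM, and Cd44, the hyaluronan receptor, from 8.53 ± 3.31 to 24.3 ± 1.23 CPM. Sdc2 and Sdc4, syndecans abundant in hepatocytes, fell from 169.9 ± 18.9 to 98.9 ± 9.97 CPM and from 654 ± 162 to 356 ± 97.3 CPM, while Sdc3 rose from 57.6 ± 14.4 to 132 ± 20.3 CPM. Of 5 stellate cell markers 4 rose in the same libraries, and their part was not tested.

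In the junction and keratin list 8 of 29 tested genes rose (5 without MASH replicate 4) and 3 fell. Krt8 and Krt18, the keratin pair of hepatocytes, rose from 217 ± 35.4 to 478 ± 156 CPM and from 148 ± 13.7 to 244 ± 52.1 CPM, Cldn2, a pore-forming tight junction protein, from 63 ± 8.13 to 134 ± 11.3 CPM, and Gjb1, the main gap junction protein of hepatocytes, fell from 562 ± 15.6 to 395 ± 25.2 CPM. The bile duct keratins Krt7 and Krt19 had log2 fold changes of 1.53 ± 0.70 and 0.71 ± 0.96 and did not pass, and the bile duct marker sum was highest in MASH replicate 4. In the list of oncofetal genes 6 of 17 tested genes rose (3 without MASH replicate 4 or chow replicate 3 or 4) and 0 fell. Scd2, a desaturase of fetal tissue, rose from 5.36 ± 0.954 to 24.4 ± 8.51 CPM, Sox4, a transcription factor of progenitor cells, from 1.92 ± 0.314 to 9.22 ± 6.35 CPM, and Igf2bp2, an RNA-binding protein, from 1.13 ± 0.291 to 4.1 ± 1.33 CPM, while Afp, Igf2 and Gpc3 had 0.49 ± 0.35, 0.078 ± 0.36 and 1.49 ± 0.68 and did not pass.

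Targets of p53 and genes of cell death rose more often than they fell. In the p53 target list 14 of 28 tested genes rose and 1 fell (2 without MASH replicate 2 or chow replicate 2). Eda2r, a death-domain receptor, stood at 1.09, 0.445, 0.302 and 0.353 CPM in chow replicates 1 to 4 and 3.44, 3.29 and 3.46 CPM in MASH replicates 2 to 4. The MASH libraries lay above all chow libraries, with a log2 fold change of 2.63 ± 0.45 (adjusted p = 0.000829). Tnfrsf10b, the TRAIL receptor, rose from 0.323 ± 0.0839 to 1.55 ± 0.192 CPM, Phlda3, an inhibitor of Akt, from 1.32 ± 0.22 to 5.28 ± 1.23 CPM, Zmat3, an RNA-binding protein, from 8.45 ± 0.997 to 13.9 ± 1.18 CPM, and Sesn1, a stress-induced regulator of mTORC1, fell from 19.1 ± 2.5 to 13.4 ± 2.06 CPM. Cdkn1a, the p21 cell cycle inhibitor, stood at 44.8, 10, 21.4 and 33 CPM in chow replicates 1 to 4 and 190.2, 132 and 45.7 CPM in MASH replicates 2 to 4. MASH replicate 4 lay just above chow replicate 1. Its log2 fold change of 2.17 ± 0.66 lost its call when 1 library was left out (adjusted p = 0.0557 to 0.0967 without MASH replicate 2 or 3 or chow replicate 3). Mdm2, a target that restrains p53, had 0.21 ± 0.13 and did not pass. In the cell death list 13 of 29 tested genes rose and 2 fell (0 without MASH replicate 2 or 4 or chow replicate 1 or 2, 1 without chow replicate 4). Ripk3 and Mlkl, kinase and executor of necroptosis, rose from 1.6 ± 0.285 to 3.55 ± 0.574 CPM and from 2.79 ± 0.421 to 7.28 ± 0.612 CPM, Gsdme, a pore-forming gasdermin, from 0.591 ± 0.166 to 1.91 ± 0.425 CPM, Bcl2, which restrains apoptosis, from 2.1 ± 0.161 to 4.85 ± 0.709 CPM, and Tnfrsf12a, the receptor of TWEAK, from 9.63 ± 1.21 to 28 ± 4.88 CPM. Casp8, the caspase activated by death receptors, had a log2 fold change of 0.21 ± 0.11 and did not pass.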

How the data were processed

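RNA of mouse liver was measured by RNA sequencing in 14 libraries. The deposited table holds expected counts per gene; the submitters' processing notes name HTSeq, DESeq2 1.42.1 and the build GRCm38 without their roles. RNeasy extraction and NEBNext Ultra II library kits were used, per the labels' protocols. From 5.09% to 5.76% of a library's expected counts were fractional in the deposited table and were rounded. The authors' 6 comparison tables were not used here.

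Groups came from sample titles. Treatment tags of 2 libraries, 1 in each compound group, disagreed with the titles. Genes were kept by filterByExpr (minimum count 10, minimum total 15), and all 14 libraries were fitted in R 4.3.3 by the two-sided robust quasi-likelihood F test of edgeR 4.0.16 after TMM scaling. Benjamini-Hochberg adjustment covered all 15674 genes, with a threshold of 0.05. CPM is a gene's count divided by the TMM-scaled library size, in its usual unit. Symbols and coordinates came from GENCODE M21, which held 45143 of 45706 identifiers. Same-group libraries differed by more than counting error, with a chi-square per gene of 25 to 108. The steps were tested on simulated counts with known changes.

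The text names a part of these genes: the 25 largest rises and falls past the threshold with at least 1 CPM in the higher group, no overlap between groups, a symbol that is no clone name and no membership of lipid droplet, cholesterol, macrophage or collagen lists; the 15 largest of each with at least 100 CPM; and up to 5 members of each of 37 pathway lists by smallest p, with other members given by their values. Some genes that meet this rule are not reported here. Marker lists of 16 cell types were summed. Members, lists and rules were chosen with earlier results of these data known. The alternatives were other scaling, no filter, DESeq2 1.42.0, limma 3.58.1 voom with sample weights, a replicate block, the 7 libraries alone, groups from tags, each library left out, both disagreeing libraries left out, and a test against a 1.5-fold change.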

Additional observations from a re-analysis of the deposited data

Results flagged for a closer look

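Of the genes named in the text 245 were checked for outlying chow libraries. In 13 of them 1 of the 4 chow libraries stood farther from the others than Dixon's 95% limit allows. Chance flags about 1 in 20 groups, and 13 of 245 lies near that share. The limit was applied to CPM rather than to log values. Chow replicate 1 was the highest library in 9 of them. Acta2 and Cnn1, smooth muscle genes, stood there at 4.98 and 1.06 CPM against at most 1.18 and 0.118 CPM in the other chow libraries. Krt19, a bile duct keratin, stood at 4.11 CPM against at most 0.824 CPM, and Ugt2b38 at 43.5 CPM against at most 9.37 CPM. Tubb2a stood at 85.7 CPM against at most 40.5 CPM, Chka at 81.7 CPM against 44.9 CPM, Smpd3 at 3.68 CPM against 2.11 CPM and Yap1 at 104 CPM against 80.6 CPM. Ldha stood there at 1150 CPM against at most 864 CPM in the other chow libraries. For Tubb2a, Chka and Smpd3 this library lay nearest to the MASH libraries. Heyl was highest in chow replicate 2, at 1.54 CPM against 0.971 CPM, and Spire2 in chow replicate 3, at 0.0504 CPM against 0.0296 CPM. Psmd8 and Notum were lowest in chow replicate 2, at 95.5 and 31.4 CPM against at least 108 and 38.1 CPM.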

How the results depend on the processing

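Under each alternative with edgeR, DESeq2 or voom at the same threshold, 2373 to 3802 genes were higher and 1438 to 3028 lower, against 3200 and 2363. The extremes came from leaving out MASH replicate 4 and from taking groups from the tags. Tested against a 1.5-fold change, 1286 were higher and 169 lower. Of the 245 genes of the text that were checked, 214 had passed, and 86 of these no longer did. Leaving out 1 library at a time gave 2373 to 2982 higher, 1438 to 2253 lower (1438 without MASH replicate 4) and 1578 to 2160 changed at least 2-fold. The count of genes changed at least 2-fold, 2075, was 1907 to 2674 under the other alternatives. DESeq2 called 3337 higher and 2946 lower. The share of calls that were higher lay between 53.1% and 62.3% except in the 1.5-fold test (88.4%), and the median change over all genes lay between −0.009 and 0.020.

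With a replicate block 3055 genes were higher and 2194 lower. The replicate numbers were not taken to pair libraries: the deviations of same-numbered libraries correlated at 0.02, −0.02 and 0.16, and MASH replicate 2 correlated best with chow replicate 3 (0.09). Among named genes the block ended the calls of Lcn2, Cdkn1a and Glul. The calls of Lcn2, Cdkn1a, Cps1, Mat1a and Tat were also lost with no filter on low counts. The call of Lcn2 was lost with the 7 libraries alone. Krt7, Nrp2, Acta2, Casp8, Axin2, Shmt2, Mthfd2l, Notum, Ldha, Pgk1 and Eno1, which did not pass, passed under 1 to 4 other settings. Counting intervals do not cover differences between animals, and 3 MASH libraries limit the precision of every fold change.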
